A study of Mus musculus with 4 samples.

Results

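The genes described here carry glucose through the cell: they import it, break it down to pyruvate, export it as lactate, and control its entry into the mitochondrion at pyruvate dehydrogenase. They were chosen by name as 41 members, and all 41 of them are among the 23238 gene symbols of the count tables, each on a single row. The samples were cultured mouse cavernous endothelial cells, grown from corpus cavernosum tissue of the penis, and their RNA was sequenced after 72 hours with glucose. Normal glucose has 2 libraries, numbered 1 and 2, and high glucose has 2, numbered 2 and 4. All 4 cultures shared medium 199 with fetal bovine serum, antibiotics and heparin. The labels give no strain, genotype, animal age, glucose concentration or osmotic control. They also do not say whether replicates came from separate animals or cultures, so the spread behind each p-value may be purely technical.

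Glucose enters most cells through facilitative transporters of the GLUT (Slc2a) family and is trapped by hexokinase as glucose 6-phosphate. Phosphofructokinase commits it to breakdown, and the later enzymes yield pyruvate with a net gain of ATP. Lactate dehydrogenase turns pyruvate into lactate, which leaves through monocarboxylate transporters, or pyruvate enters the mitochondrion through its carrier and is oxidised by pyruvate dehydrogenase, which kinases switch off and phosphatases switch on. Endothelial cells are known to draw much of their ATP from glycolysis even with oxygen present, and hypoxia-inducible factor (HIF) is a known activator of many of these genes.

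Library depth was 46571770 to 74971589 counts, lowest in normal glucose replicate 2, and the members took 2.50% to 3.40% of them. Levels are CPM, a gene's count scaled to the TMM-adjusted total of its library. Each pair of values follows the library numbers, 1 and 2 for normal, 2 and 4 for high glucose. Normal glucose replicate 2 stood apart: over all tested genes its log2 CPM correlated with the other libraries at r = 0.976 to 0.978, and those 3 with each other at 0.985 to 0.988. All 41 members passed the filter on low counts and were tested among 16270 genes. The defining markers of the endothelial label were low or nearly absent. Over 10 endothelial markers the summed level was 12.2 and 15.3 CPM in normal and 11.9 and 12.3 CPM in high glucose. Most of it came from Cdh5 (4.61 and 6.56 against 5.10 and 4.75 CPM) and Pecam1 (3.58 and 3.44 against 2.32 and 2.80 CPM). Kdr had 1.00 and 1.03 against 1.26 and 1.41 CPM. Cldn5 was at 0 in 3 of 4 libraries, and Vwf and Nos3 lay under 1 CPM. Summed over 8 fibroblast markers the level was 9185 and 11116 CPM in normal and 11078 and 10091 CPM in high glucose. For 8 smooth muscle and pericyte markers the sum was 475 and 663 CPM in normal and 478 and 480 CPM in high glucose. In RNA from a whole culture, fewer cells of a type and less RNA per cell cannot be told apart.

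High glucose came with lower, not higher, transcript levels for much of the route from glucose import to pyruvate. None of these differences passed the test over all genes. The glucose transporter Slc2a1, the hexokinase Hk1, the aldolase Aldoc and the pyruvate dehydrogenase kinases Pdk1 and Pdk3 were lower in both high glucose libraries, with fitted levels at 0.536 (Aldoc) to 0.739 (Pdk3) times those in normal glucose. The lactate transporter Slc16a1 was higher in both, at 1.40 times.

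At an adjusted p under 0.05 (edgeR's quasi-likelihood test, Benjamini-Hochberg over all genes tested), 0 of 41 members were called, where 0.0123% of all genes were called in either direction. The count was 0 with limma-voom and 1 with DESeq2 and with edgeR's exact test, Aldoc in each. At an unadjusted p under 0.05, 6 members were lower (14.6%), against 3.23% of all genes tested, and 1 was higher (2.44%), against 2.22%. Both high glucose libraries lay below both normal glucose libraries for 16 members (39.0%), against 16.2% of all genes, and above them for 7 members (17.1%), against 16.3%. The share of members that were lower thus exceeded the background on both counts, and the share that were higher was near it. The median log2 fold change over the members was -0.15, with 26 of 41 below 0, beside -0.0045 over all genes, with 50.8% of genes below 0. The members were chosen with earlier results known, so these counts carry no test of their own.

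The libraries of normal glucose differed from each other more than those of high glucose did. Between the normal glucose libraries the median gap over the members was 0.32 on the log2 scale, against 0.12 between the high glucose libraries, and for 23 of 41 members it was wider than the change from normal to high glucose. Leaving out each library in turn kept the sign of the fitted change for 28 of 41 members in all 4 fits. The number of members called was 12 without normal glucose replicate 1 and 2 (Hk2 and Aldoc) without normal glucose replicate 2, and 0 without either high glucose library. The 12 were Slc2a1, Slc2a8, Hk1, Aldoa, Aldoc, Gapdh and Slc16a3, all lower, and Ldhb, Slc16a1, Pdha1, Pdhb and Mpc1, all higher. A fit without a normal glucose library takes the remaining one to vary as the high glucose libraries do. In these 2 fits the calls over all genes numbered 2667 and 157, against 2 with all libraries.

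**Figure D1:**
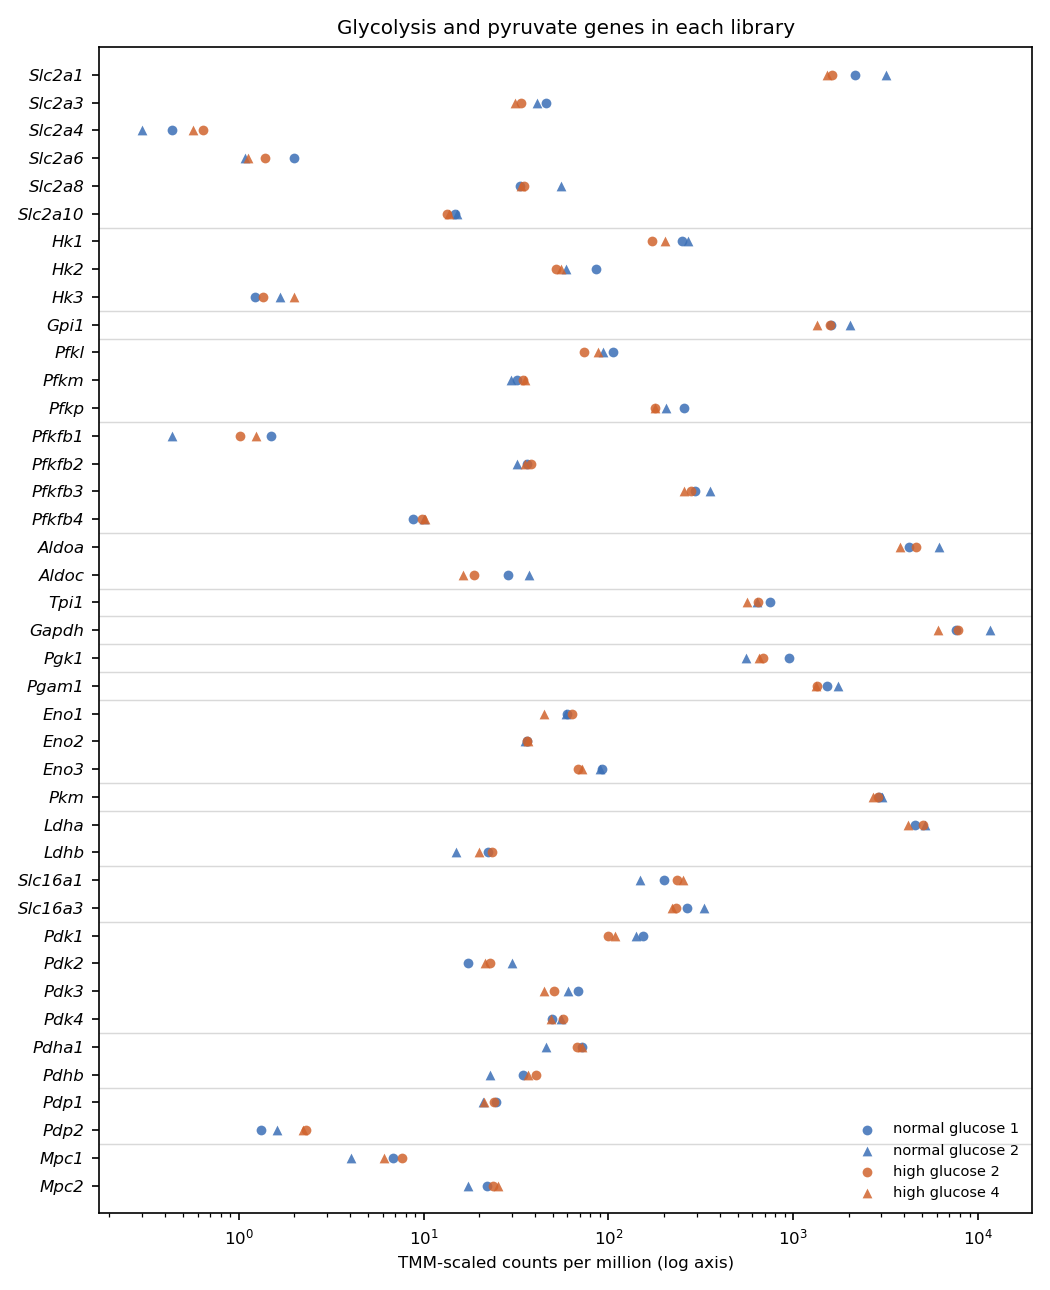
Level of each of the 41 genes in each library, in TMM-scaled CPM on a log axis, in the order of the pathway, with grey lines between steps. Blue marks are normal glucose and orange marks high glucose, and the marks of Slc2a1, Hk1, Aldoc and Pdk1 do not mix between the groups.

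Transcripts of the 6 transporters came almost wholly from 1 gene. Slc2a1, which encodes GLUT1 (coordinates in GRCm38 throughout, chromosome 4, 119108711 to 119137983), had 2147 and 3158 CPM in normal and 1623 and 1523 CPM in high glucose. Both high glucose libraries lay below both normal ones, and normal glucose replicate 2 was the highest (log2 fold change -0.75, SE 0.22, unadjusted p = 0.00796, adjusted p = 0.586, edgeR). The log2 fold change was -1.01 without normal glucose replicate 1 and -0.45 without normal glucose replicate 2, so the lower level held with either normal library while its size depended on which was kept. It overlaps the antisense genes Gm12867 and Gm12868, and the use of strand in counting is not given in the sources used here. Per kilobase of exon, Slc2a1 made up 95.8% to 97.0% of the 6 transporters in every library.

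Slc2a3, the high-affinity transporter GLUT3 (chromosome 6, 122727809 to 122801640), lay far below Slc2a1. It had 46.3 and 41.1 CPM in normal and 33.6 and 31.2 CPM in high glucose, again without overlap (log2 fold change -0.43, SE 0.18, unadjusted p = 0.0466, edgeR). Slc2a10 (GLUT10), which lies on internal membranes, had 14.9 and 15.1 against 13.4 and 13.7 CPM, a separation of the groups that is small beside its SE (log2 fold change -0.15, SE 0.20, unadjusted p = 0.476, edgeR). Slc2a8 (GLUT8), an intracellular transporter, had 33.4 and 55.4 against 35.1 and 33.7 CPM. Here normal glucose replicate 2 alone was high, and without it the log2 fold change was 0.040. Slc2a6 (GLUT6) stayed between 1.08 and 2.00 CPM with the groups overlapping. Slc2a4, the insulin-responsive transporter GLUT4 of muscle and fat, was nearly absent, at 0.437 and 0.298 against 0.643 and 0.567 CPM, or 13 counts in its lowest library (log2 fold change 0.70, SE 0.48, unadjusted p = 0.186, edgeR). Of the cell types known for it, skeletal muscle markers summed to 6.48 and 5.85 CPM in normal and 7.66 and 6.24 CPM in high glucose over 8 genes, and adipocyte markers to 30.7 and 23.2 CPM in normal and 39.7 and 36.3 CPM in high glucose over 6 genes, with Lep at 0 and Adipoq at or near 0 in every library. Nearly all of the adipocyte sum came from Fabp4 (14.1 and 5.32 against 15.5 and 17.1 CPM) and Pparg (16.2 and 16.9 against 23.7 and 18.5 CPM). Of the 3 adipocyte markers that were tested, these 2 were higher and 0 lower without overlap, where 16.3% and 16.2% of all genes were. The groups overlapped for Plin1, the other tested marker (0.366 and 0.734 against 0.502 and 0.606 CPM, log2 fold change 0.042). The part of such cells in the Slc2a4 counts was not tested.

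The bases before the start site are shown for 4 of the members that were lower without overlap and whose windows lie mostly outside exons, and for Slc16a1, the 1 member higher at an unadjusted p under 0.05. RefSeq promoter windows on GRCm38.p6, the patch of the mm10 assembly, matched 38 of the 41 members. The windows were taken as the 250 bases before the start, and bases of the Slc2a1 window inside an annotated exon are not printed. Where a gene had several windows only the first listed was used, which kept 27025 of 32851. Which start these cells use was not tested. Capitals mark ACGTG and GCGTG on either strand, the 2 forms of the core of the hypoxia response element, and CACGTG, the E-box, contains the first of them. Shown are Slc2a1 (chr4:119108495-119108710, plus strand, 216 bases), Hk1 (chr10:62379909-62380158, minus strand), Hk2 (chr6:82774455-82774704, minus strand), Pdk1 (chr2:71872974-71873223, plus strand) and Slc16a1 (chr3:104638414-104638663, plus strand), each 5′ to 3′ on the strand of its gene.
Slc2a1: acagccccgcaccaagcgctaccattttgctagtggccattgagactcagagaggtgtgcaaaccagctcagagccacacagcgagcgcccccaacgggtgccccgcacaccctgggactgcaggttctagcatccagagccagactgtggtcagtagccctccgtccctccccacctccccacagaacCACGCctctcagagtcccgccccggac
Hk1: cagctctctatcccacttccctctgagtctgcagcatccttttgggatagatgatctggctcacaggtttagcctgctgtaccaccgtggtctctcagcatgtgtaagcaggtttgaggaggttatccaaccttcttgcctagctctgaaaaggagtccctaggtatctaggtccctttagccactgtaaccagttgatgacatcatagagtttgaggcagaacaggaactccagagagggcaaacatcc
Hk2: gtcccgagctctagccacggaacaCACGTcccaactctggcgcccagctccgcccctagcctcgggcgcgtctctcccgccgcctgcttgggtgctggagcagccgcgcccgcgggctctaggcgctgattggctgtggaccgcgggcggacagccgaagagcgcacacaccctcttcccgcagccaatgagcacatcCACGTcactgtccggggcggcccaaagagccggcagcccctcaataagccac
Pdk1: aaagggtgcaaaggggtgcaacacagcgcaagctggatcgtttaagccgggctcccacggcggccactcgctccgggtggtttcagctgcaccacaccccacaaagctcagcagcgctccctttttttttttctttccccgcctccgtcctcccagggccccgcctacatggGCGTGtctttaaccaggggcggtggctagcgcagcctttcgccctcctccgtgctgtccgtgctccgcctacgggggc
Slc16a1: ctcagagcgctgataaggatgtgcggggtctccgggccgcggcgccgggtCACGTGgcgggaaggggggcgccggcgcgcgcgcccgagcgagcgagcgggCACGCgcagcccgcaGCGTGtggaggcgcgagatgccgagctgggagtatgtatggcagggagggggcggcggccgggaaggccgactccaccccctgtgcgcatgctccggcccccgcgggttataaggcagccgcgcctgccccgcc
The printed Hk1 window holds neither form, those of Slc2a1 (as printed) and Pdk1 hold 1 each and that of Hk2 holds 2. The whole Slc2a1 window holds 2, and the one not printed crosses into the exon. Slc16a1, the printed member that was higher, holds 3 marked stretches, 1 of them an E-box. Lower members whose windows are not printed hold, over whole windows, from 0 (Gpi1) to 4 (Pdk3) such stretches, with 3 each for Pfkp and Pgam1. Over whole windows, ACGTG or GCGTG occurred in 30 of 38 member windows (78.9%), in 53.6% of 12078 windows of tested genes and in 38.6% of 27025 windows over all genes. By outcome, it occurred in 11 of 15 windows of members lower without overlap and in 5 of 6 of those higher, groups formed from the measured levels. The E-box occurred in 6 of 38 member windows (15.8%), against 7.96% of tested genes. Of those 6, 3 belong to members higher without overlap and 3 to members whose groups overlap (Pfkfb2, Ldha and Pdk2). Median GC content was 61.2% over member windows, 59.2% over tested genes and 52.0% over all genes, and the part of base composition in these shares was not tested. A match is a run of letters and not a site shown to be bound.

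Transcripts of the 3 hexokinases came mainly from Hk1 and Hk2. Hk1, the hexokinase found in most cells (chromosome 10, 62268855 to 62379908), had 249 and 269 CPM in normal and 172 and 201 CPM in high glucose, lower in both high glucose libraries (log2 fold change -0.47, SE 0.18, unadjusted p = 0.0318, adjusted p = 0.845, edgeR). It overlaps the antisense gene Hk1os. Hk2, the inducible hexokinase of muscle, fat and growing cells (chromosome 6, 82725025 to 82774454), had 85.3 and 59.0 CPM in normal and 52.2 and 55.3 CPM in high glucose. It too did not overlap (log2 fold change -0.42, SE 0.22, unadjusted p = 0.0835, edgeR), but normal glucose replicate 1 alone stood well above the rest, and the log2 fold change was -0.13 without it and -0.67 without normal glucose replicate 2. Hk3, the hexokinase of leukocytes, had 1.23 and 1.67 against 1.35 and 1.99 CPM, with overlapping groups. Summed over 8 macrophage and leukocyte markers the level was 65.9 and 69.5 CPM in normal and 74.4 and 72.2 CPM in high glucose. The T cell marker Cd3e was at or near 0 in every library. Of the 7 that were tested, 3 were higher and 0 lower without overlap, where 16.3% and 16.2% of all genes were. The 3 were Lyz2 (27.2 and 18.0 against 27.9 and 28.3 CPM), Adgre1 (9.61 and 8.83 against 10.5 and 10.7 CPM) and Itgam (6.39 and 8.12 against 8.62 and 8.81 CPM), all of myeloid cells. The groups overlapped for the myeloid markers Cd68 (12.7 and 22.8 against 16.7 and 12.9 CPM, log2 fold change -0.26) and Csf1r (log2 fold change 0.046). They also overlapped for Cd79a (log2 fold change 0.065) and the leukocyte marker Ptprc (log2 fold change -0.23). The part of such cells in Hk3 was not tested. Per kilobase of exon, Hk1 supplied 66.6% and 75.3% in normal and 68.8% and 70.7% in high glucose of the 3 hexokinases, so both main forms were lower with no ordered shift between them. Gpi1, which turns glucose 6-phosphate into fructose 6-phosphate, had 1597 and 2017 CPM in normal and 1573 and 1352 CPM in high glucose (log2 fold change -0.31, SE 0.19, unadjusted p = 0.154, edgeR). High glucose replicate 2 lay just under normal glucose replicate 1.

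The 3 phosphofructokinase genes differed in direction. Pfkp, the platelet form, had 258 and 206 CPM in normal and 178 and 178 CPM in high glucose, and Pfkl, the liver form, had 106 and 93.1 CPM in normal and 73.7 and 87.7 CPM in high glucose. Both were lower without overlap (log2 fold changes -0.38 and -0.30, SE 0.19 and 0.19, unadjusted p = 0.0795 and 0.142, edgeR). Pfkm, the muscle form, was higher without overlap, with 32.04 and 29.6 against 34.5 and 35.4 CPM (log2 fold change 0.18, SE 0.18, unadjusted p = 0.35, edgeR). It overlaps the antisense gene Senp1. Per kilobase of exon, Pfkm made up 21.4% and 23.2% in normal and 29.8% and 28.6% in high glucose of the 3 forms, and Pfkp made up 43.0% and 40.3% in normal and 38.4% and 35.9% in high glucose. The Pfkm share was also higher in both high glucose libraries when the longest transcript was taken as the length (16.1% and 17.4% in normal and 22.9% and 21.8% in high glucose). With 2 libraries against 2 an exact permutation test, two-sided, cannot go below p = 0.33, so shares are given without a test.

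Fructose 2,6-bisphosphate, the strongest activator of phosphofructokinase, is made and removed by the 4 Pfkfb enzymes. Pfkfb3, the form with the highest kinase activity and a known driver of endothelial glycolysis, was the main one, with 293 and 353 CPM in normal and 281 and 258 CPM in high glucose (log2 fold change -0.26, SE 0.19, unadjusted p = 0.202, edgeR). Its groups did not overlap, but high glucose replicate 2 and normal glucose replicate 1 were close. Per kilobase it made up 82.5% to 87.6% of the 4 genes across the libraries. Pfkfb2, the heart form, lay between 32.2 and 38.3 CPM and Pfkfb4 between 8.77 and 10.1 CPM, both with overlapping groups. Pfkfb1, the liver form, had only 1.49 and 0.436 against 1.02 and 1.24 CPM. Its sign turned to -0.40 without normal glucose replicate 2.

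**Figure D2:**
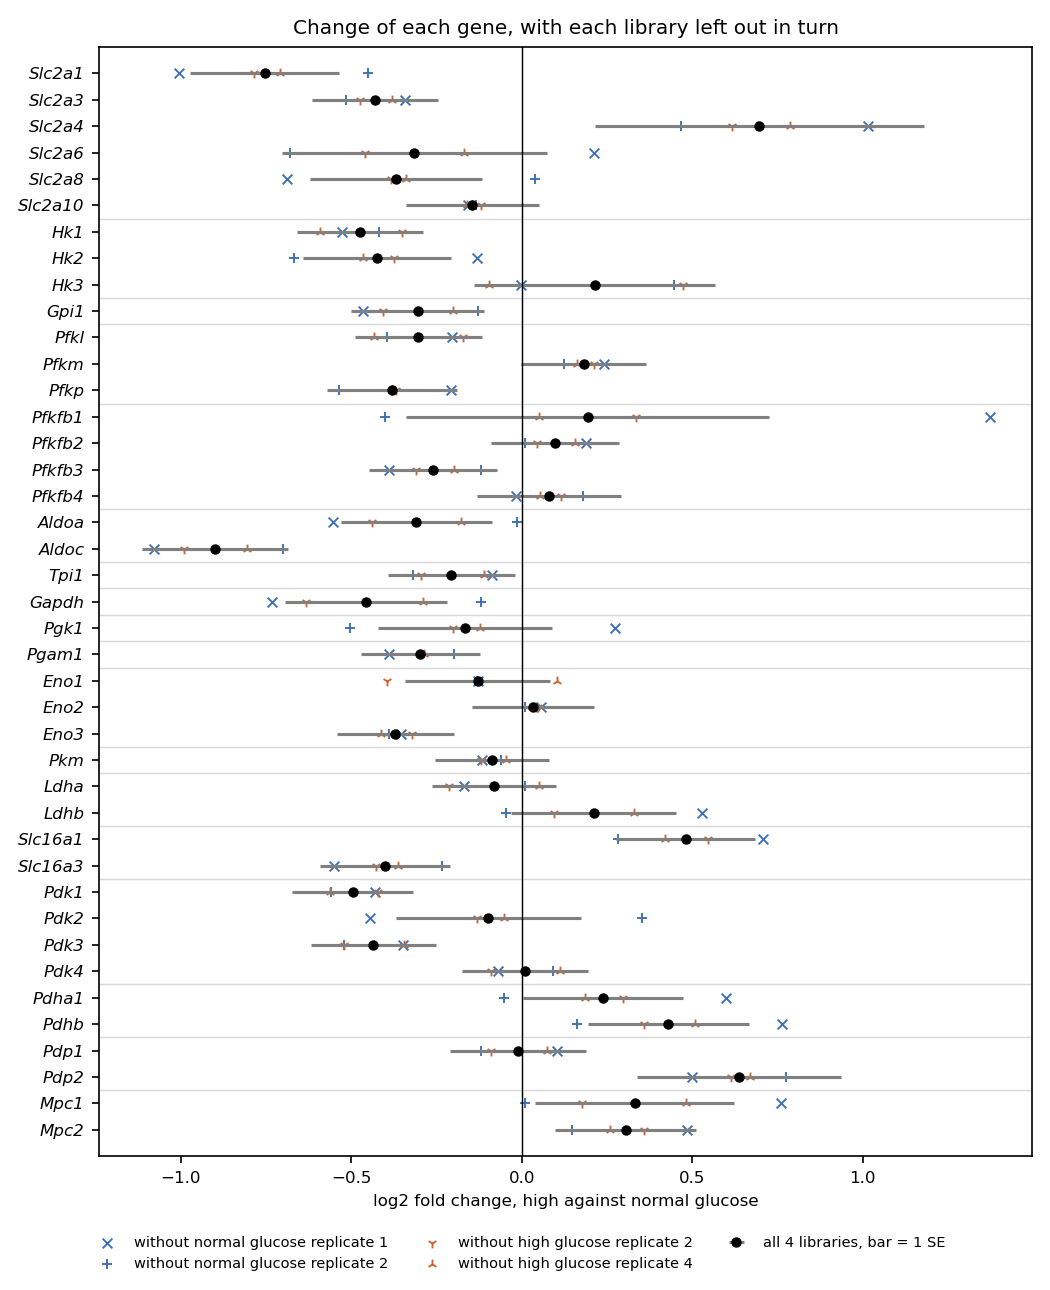
Fitted log2 fold change of each gene, high against normal glucose (black points, bars of 1 SE), with the values when each library in turn was left out (crosses and ticks). Slc2a1, Hk1, Aldoc and Pdk1 stay below 0 in every fit, while Pgk1, Pdk2 and Pfkfb1 change sign when 1 normal glucose library is left out.

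Aldolase splits fructose 1,6-bisphosphate into the triose phosphates. Aldoa, the general form, had 4233 and 6163 CPM in normal and 4592 and 3800.0 CPM in high glucose, where normal glucose replicate 2 alone was high, and the log2 fold change was -0.014 without it. Aldoc, the brain form (chromosome 11, 78322968 to 78327781), had 28.6 and 37.2 CPM in normal and 18.8 and 16.4 CPM in high glucose. The groups did not overlap, and its p was the lowest among the members (log2 fold change -0.90, SE 0.21, unadjusted p = 0.00276, adjusted p = 0.479, edgeR). The unadjusted p stayed under 0.05 with each library left out (edgeR), the log2 fold change running from -1.08 to -0.70. It supplied only 0.762% and 0.682% in normal and 0.464% and 0.489% in high glucose of aldolase per kilobase of exon. Among 8 neuronal and Schwann cell markers, Tubb3 had 14.7 and 19.5 against 9.29 and 9.31 CPM and Syp 0.535 and 0.963 against 0.235 and 0.142 CPM, whereas Snap25 had 15.0 and 15.5 against 26.5 and 26.4 CPM. The list summed to 39.0 and 41.7 CPM in normal and 44.1 and 43.5 CPM in high glucose, with Sox10 near 0 in every library, and its part in Aldoc was not tested.

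The middle enzymes were abundant and uneven between the normal glucose libraries. Gapdh, which makes NADH as it oxidises glyceraldehyde 3-phosphate, had 7551 and 11547 CPM in normal and 7806 and 6104 CPM in high glucose (log2 fold change -0.46, SE 0.24, unadjusted p = 0.0878, edgeR). Normal glucose replicate 2 was far above the other libraries, and without it the log2 fold change was -0.12. Pgk1, the first step that yields ATP, went the other way between the same libraries, with 949 and 555 CPM in normal and 690.4 and 650.4 CPM in high glucose. Its change was 0.27 without normal glucose replicate 1 and -0.50 without normal glucose replicate 2, opposite in sign. Tpi1, which interconverts the triose phosphates, had 749 and 639 against 642 and 561 CPM, with the groups overlapping. Pgam1, the phosphoglycerate mutase, had 1528 and 1747 against 1343 and 1323 CPM, lower in both high glucose libraries (log2 fold change -0.30, SE 0.18, unadjusted p = 0.127, edgeR).

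Several of these genes share sequence with copies elsewhere in the genome, so reads may have been split between rows. Of the members, 11 share at least 10% of their 32-base stretches with another locus, among them Pgk1 (54.7%), Pgam1 (37.1%), Ldhb (32.2%), Gapdh (27.1%), Pkm (22.3%) and Ldha (18.9%). A row named Gm12070 shares 21.3% of the Gapdh stretches and had 1281 and 2179 CPM in normal and 1304 and 1044 CPM in high glucose. It was high in normal glucose replicate 2, as Gapdh was, and the sum of both rows gave a log2 fold change of -0.47 (SE 0.24), beside -0.46 for Gapdh alone. Antisense genes overlap 16 members, whose counts may hold reads of the partner: Slc2a1, Hk1, Hk2, Hk3, Gpi1, Pfkm, Pfkp, Pfkfb1, Pfkfb2, Pfkfb3, Aldoa, Tpi1, Gapdh, Pdk2, Pdha1 and Mpc1.

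For enolase the reading depended on the row names. Eno1, the general form, stood at only 59.4 and 59.3 CPM in normal and 63.7 and 44.8 CPM in high glucose, and per kilobase of exon below Eno3 (10.6 against 46.3 CPM per kilobase), although Eno1 is the main enolase of most cells. Rows named Eno1b, a copy that shares 81.5% of its 32-base stretches with Eno1, held 4481 and 4584 CPM in normal and 3999 and 3549 CPM in high glucose. Summed, they lay lower in both high glucose libraries. Adding Eno1 and Eno1b gave a log2 fold change of -0.26 (SE 0.17, unadjusted p = 0.159, edgeR), beside -0.13 for the Eno1 row, a sum chosen after the values were seen. The files do not show which of the 2 genes gave the reads. Eno3, the muscle form, had 92.0 and 89.7 CPM in normal and 68.3 and 72.2 CPM in high glucose, lower without overlap (log2 fold change -0.37, SE 0.17, unadjusted p = 0.0609, edgeR). Of the 8 skeletal muscle markers summed above, Ckm, Myh2 and Myh4 had under 0.1 CPM in every library, Acta1 had 2.06 and 2.18 against 1.85 and 1.60 CPM, Actn3 had 3.49 and 3.14 against 4.54 and 2.93 CPM and Myh1 had 0.0282 and 0 against 0.188 and 0.619 CPM. Their part in Eno3 was not tested. Eno2, the neuronal form, had 36.3 and 35.2 against 36.5 and 36.7 CPM, higher without overlap by much less than its SE (log2 fold change 0.033, SE 0.18, unadjusted p = 0.859, edgeR).

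**Figure D3:**
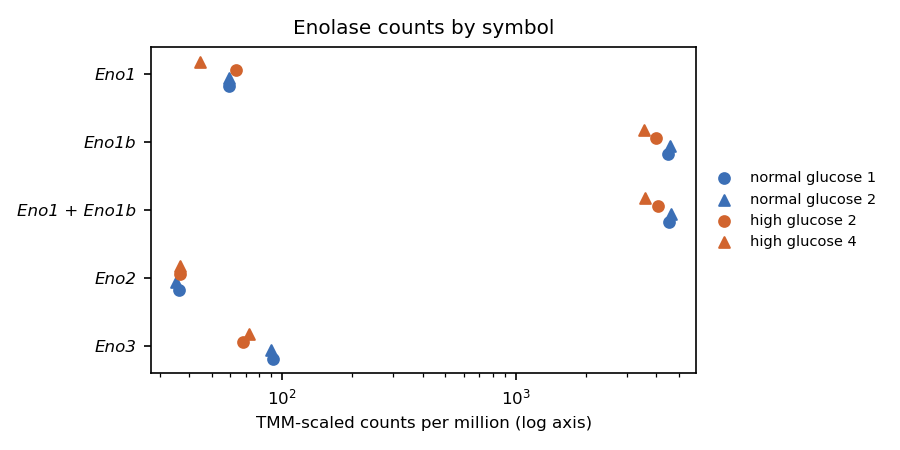
TMM-scaled CPM (log axis) of the enolase symbols in each library, with the sum of Eno1 and Eno1b. The Eno1b rows hold between 3549 and 4584 CPM, while Eno1 itself stays under 89.7 CPM, the Eno3 level in normal glucose replicate 2.

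Pyruvate kinase and lactate dehydrogenase A were abundant, with changes no larger than their SE. Pkm, which makes pyruvate and ATP, had 2903 and 3020.5 CPM in normal and 2868 and 2706 CPM in high glucose (log2 fold change -0.088, SE 0.17, unadjusted p = 0.614, edgeR). The counts are per gene, so its muscle and growth-associated splice forms cannot be told apart. Ldha, the lactate-forming subunit, had 4559.9 and 5171 CPM in normal and 5036 and 4158 CPM in high glucose, and its sign turned without normal glucose replicate 2 (0.010) or high glucose replicate 4 (0.050). Ldhb, the subunit of oxidative tissues, had 22.3 and 15.0 against 23.5 and 19.9 CPM, with normal glucose replicate 2 the lowest. Ldha made up 98.98% to 99.4% of both subunits per kilobase in the 4 libraries.

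The 2 lactate transporters differed in direction. Slc16a1, the transporter MCT1 that moves lactate either way (chromosome 3, 104638668 to 104658462), had 199.98 and 149 CPM in normal and 234 and 253 CPM in high glucose, higher in both high glucose libraries (log2 fold change 0.48, SE 0.20, unadjusted p = 0.0449, adjusted p = 0.913, edgeR). Slc16a3, the export form MCT4 of glycolytic cells (chromosome 11, 120948480 to 120960868), had 266 and 331 CPM in normal and 232 and 220.1 CPM in high glucose, lower in both (log2 fold change -0.40, SE 0.19, unadjusted p = 0.0678, adjusted p = 0.94, edgeR). Their sum was 466 and 480.2 CPM in normal and 466 and 473 CPM in high glucose. Per kilobase of exon, Slc16a1 made up 47.5% and 35.1% in normal and 54.7% and 58.0% in high glucose of the pair. By this measure Slc16a3 led in both normal and Slc16a1 in both high glucose libraries. With the longest transcript as the length the Slc16a1 share was 42.4% and 30.6% in normal and 49.6% and 53.0% in high glucose, so the groups stayed apart while the leader in high glucose replicate 2 did not. Both changes were smaller without normal glucose replicate 2 (0.28 and -0.23) than without normal glucose replicate 1 (0.71 and -0.55). Of the membrane partners of these transporters, Emb had 341 and 283 against 439.6 and 386 CPM (higher in both high glucose libraries, unadjusted p = 0.0646, edgeR) and Bsg had 1689.8 and 1741 against 1505 and 1334 CPM (lower in both, unadjusted p = 0.153, edgeR).

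**Figure D4:**
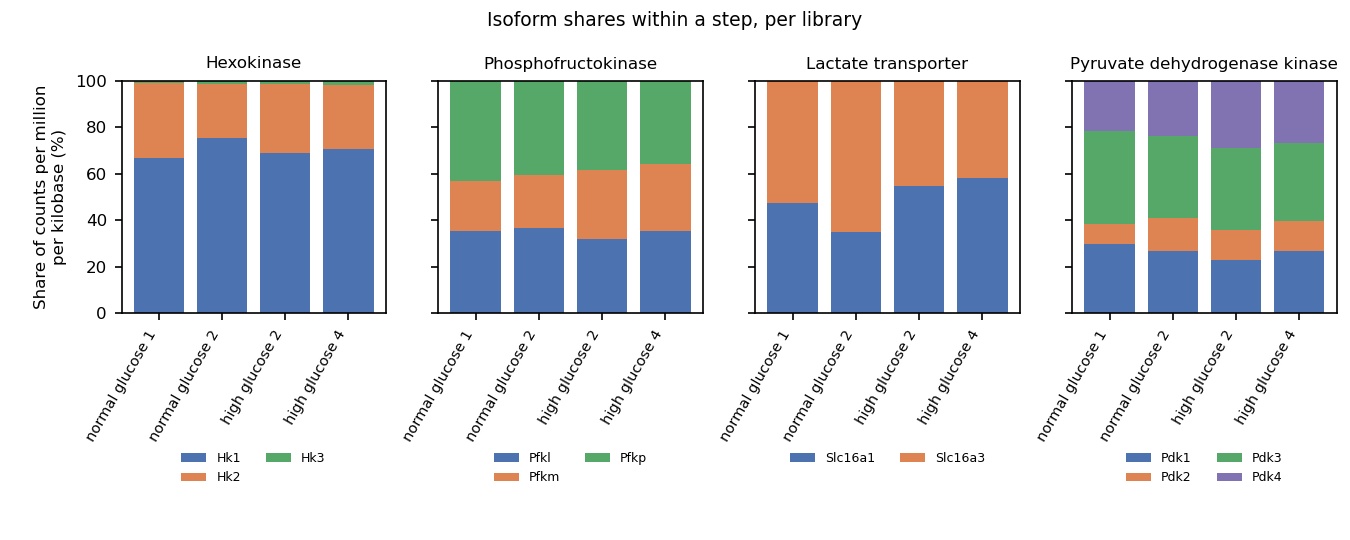
Share of each isoform in the CPM per kilobase of exon of its step, in each library, for hexokinase, phosphofructokinase, the lactate transporters and the pyruvate dehydrogenase kinases. The Slc16a1 share is larger in both high glucose libraries than in both normal ones, as are those of Pfkm and Pdk4.

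The pyruvate dehydrogenase kinases, which switch the complex off, comprised 2 that were lower in both high glucose libraries and 2 whose groups overlapped. Pdk1, a hypoxia-induced form (chromosome 2, 71873224 to 71903858), had 153 and 141 CPM in normal and 99.6 and 109 CPM in high glucose, lower in both high glucose libraries (log2 fold change -0.50, SE 0.18, unadjusted p = 0.0223, adjusted p = 0.796, edgeR). Pdk3 (chromosome X, 93764607 to 93832201) had 68.3 and 60.7 CPM in normal and 50.7 and 44.7 CPM in high glucose, also lower in both (log2 fold change -0.44, SE 0.18, unadjusted p = 0.0431, adjusted p = 0.907, edgeR). The changes of both kept their sign with each library left out, from -0.56 to -0.42 for Pdk1 and from -0.52 to -0.35 for Pdk3. Pdk4, the form induced by fasting and fatty acids, had 49.4 and 55.3 against 56.6 and 48.8 CPM, with no separation, and Pdk2, the widely expressed form, had 17.4 and 30.2 against 22.9 and 21.5 CPM, where the normal glucose libraries bracketed the others. Pdk3 was the leading kinase per kilobase of exon in every library, and the Pdk4 share was 21.3% and 23.5% in normal and 28.8% and 26.6% in high glucose. The 4 kinases together had 288 and 287 CPM in normal and 229.9 and 224 CPM in high glucose.

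The enzyme itself, its phosphatases and the pyruvate carrier lay level or higher in high glucose, with normal glucose replicate 2 mostly lowest. Pdha1 and Pdhb encode the subunits of its first component, pyruvate dehydrogenase. Pdha1 had 72.4 and 46.1 CPM in normal and 67.5 and 72.4 CPM in high glucose, and without normal glucose replicate 2 the change was -0.052. Pdhb had 34.6 and 22.8 CPM in normal and 40.8 and 36.6 CPM in high glucose and did not overlap (log2 fold change 0.43, SE 0.24, unadjusted p = 0.103, edgeR), with a change of 0.16 without normal glucose replicate 2. Mpc1 and Mpc2, the partner subunits of the mitochondrial pyruvate carrier, had 6.83 and 4.06 against 7.63 and 6.14 CPM and 22.03 and 17.5 against 23.6 and 25.2 CPM. Mpc2 was higher in both high glucose libraries (log2 fold change 0.30, SE 0.21, unadjusted p = 0.176, edgeR), and without normal glucose replicate 2 the changes were 0.0080 for Mpc1 and 0.15 for Mpc2. Of the phosphatases that switch the enzyme on, Pdp2 was higher without overlap at a low level (1.32 and 1.61 against 2.32 and 2.22 CPM, log2 fold change 0.64, SE 0.30, unadjusted p = 0.0646, edgeR). Pdp1 made up 92.4% to 95.9% of the pair per kilobase and had 24.5 and 21.0 against 24.0 and 21.3 CPM, with the groups overlapping.

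Compared per kilobase of exon, levels in these cells spanned the whole pathway unevenly. Averaged over the 4 libraries, Gapdh (1997 CPM per kilobase), Ldha (1429), Aldoa (1266), Pgam1 (749) and Slc2a1 (603) came first, followed by Pkm (575). This order is not firm. With the longest transcript as the length Aldoa ranked 1, Gapdh 3, Pkm 4 and Slc2a1 6. Eno1 and Eno1b summed would lie at 668 to 863 CPM per kilobase with the Eno1 exon length of 5379 bases, above Slc2a1 in 3 of 4 libraries. Most of these counts sit on Eno1b, whose exons span 1877 bases. With that shorter length the summed level would be higher. Hk1 (26.1), Pdha1 (17.3) and Pfkp (15.3) were far lower, and the carrier genes Mpc2 (3.01) and Mpc1 (2.96) lower still. The 5 members with under 1 CPM per kilobase were Slc2a6, Hk3, Pdp2, Pfkfb1 and Slc2a4.

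By stage, the median log2 fold change was -0.34 over 6 transporters, -0.26 over 21 genes from hexokinase to pyruvate kinase, 0.065 over 4 genes of lactate and 0.12 over 10 genes of the pyruvate gate, beside -0.0045 over all genes. From hexokinase to pyruvate kinase 15 of 21 genes lay below 0 and 10 were lower and 2 higher without overlap, where 16.2% and 16.3% of all genes were. At the pyruvate gate 6 of 10 lay above 0, 3 were higher and 2 lower without overlap, counts near those shares. Without normal glucose replicate 2 the medians were -0.13 from hexokinase to pyruvate kinase and 0.050 at the gate, and without normal glucose replicate 1 they were -0.13 and 0.29. The medians of the transporters, of the enzymes and of the gate kept their signs in all 4 such fits. The difference between stages was not tested.

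Beyond the members, 27 of 39 further genes of glucose and pyruvate handling passed the filter. None was called (edgeR), 0 were lower and 3 higher at an unadjusted p under 0.05 (3.23% and 2.22% of all genes), and 17 lay below 0 (median -0.028). The 3 were Pcx, the pyruvate carboxylase that feeds pyruvate into the tricarboxylic acid cycle (10.1 and 12.6 against 15.8 and 19.2 CPM, log2 fold change 0.62, SE 0.22, unadjusted p = 0.0215, edgeR), Ldhd, which acts on D-lactate (4.48 and 3.56 against 6.65 and 5.87 CPM, log2 fold change 0.64, SE 0.24, unadjusted p = 0.0297, edgeR), and Slc16a7, the transporter MCT2 (0.915 and 0.688 against 1.22 and 1.81 CPM, log2 fold change 0.91, SE 0.38, unadjusted p = 0.0429, edgeR). Genes of liver glucose handling were at or near 0 in every library: Pklr, Fbp1, Slc2a2 and G6pc each had fewer than 10 counts. In the tricarboxylic acid cycle 14 of 17 genes lay above 0 and 3 below (median 0.12), where 50.8% of all genes lay below 0. Most of the 17 overlapped between the groups, with 3 higher and 0 lower without overlap (16.3% and 16.2% of all genes). At an unadjusted p under 0.05 (edgeR) there were 0. Normal glucose replicate 2 was the lowest library for some, such as Fh1 (25.9 and 15.3 against 24.6 and 24.4 CPM). It was the highest for others, such as Cs (277 and 331 against 305 and 317 CPM). Among hypoxia-induced genes outside glycolysis 17 of 20 lay below 0 (median -0.36), 8 were lower at an unadjusted p under 0.05 (edgeR), where 3.23% of all genes were, and 13 were lower without overlap, where 16.2% of all genes were. None of them was called over all genes, and the difference between these lists and the members was not tested.

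**Figure D5:**
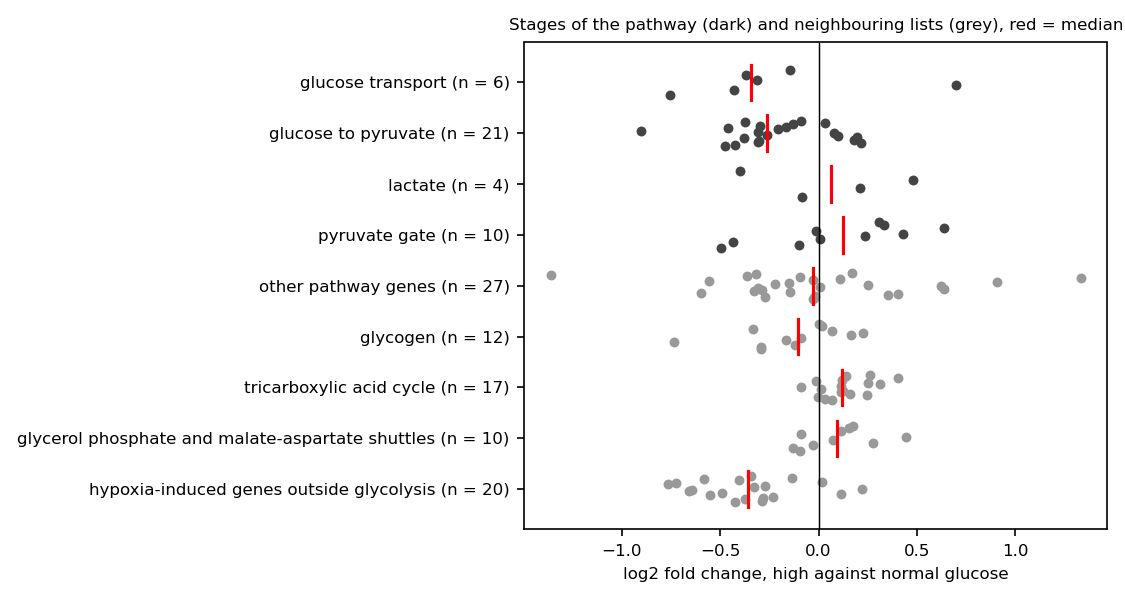
Log2 fold change, high against normal glucose, of each tested gene by stage of the pathway (dark points) and in neighbouring lists (grey points), with medians in red. Medians are -0.26 from hexokinase to pyruvate kinase, 0.12 at the pyruvate gate, -0.36 for hypoxia-induced genes and 0.12 for the tricarboxylic acid cycle.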

How the data were processed

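RNA-seq counts from 4 libraries (2 in normal and 2 in high glucose) were analysed. The authors deposited raw counts by gene symbol for each library. TopHat, edgeR and the build mm10 are named per the submitters' processing notes, without versions or roles. How reads were counted (tool, gene models, strand, reads with several matches) is not given in the sources used here.

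Of 23282 rows with 23238 symbols, those sharing a symbol (35 symbols, no member among them) were summed. Tests used edgeR 4.0.16 (quasi-likelihood, two-sided, TMM, filterByExpr, group as the only term) in R 4.3.3, with Benjamini-Hochberg adjustment over 16270 genes and a threshold of 0.05, and the fit was tested on simulated data. CPM values are counts divided by TMM-scaled library totals, and SE is that of the fitted log2 fold change. No library was a copy of another: chi-square per degree of freedom between pairs was at least 62.8. Lengths (union of exons), overlaps, coordinates and shared 32-base stretches come from GENCODE vM21 (GRCm38), where all 41 members matched, and 16 overlap an antisense gene. Promoter windows come from RefSeq (GRCm38.p6), the first listed for each gene.

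All members were accounted for: values in every library for those whose groups do not overlap or that lead their step per length, ranges or values for the rest. Of the other pathway genes, the 3 with the smallest unadjusted p and those near 0 that define a cell type were named. Emb, Bsg, the marker genes given with values and the genes named in the closing section were chosen after their values were seen. The members and lists were chosen with earlier results of these data known. Alternatives were limma-voom (limma 3.58.1), edgeR's exact test, DESeq2 1.42.0, a robust fit, other scalings and filters, rows kept apart, another gene length, and leaving out each library. A single count was worth 0.0129 to 0.0229 CPM, which sets the precision of the scarcest members.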

Additional observations from a re-analysis of the deposited data

How the results depend on the processing

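No paired analysis was possible because just 1 replicate number, 2, occurs in both groups. The number of members called was 0 under other scalings, other filters, limma-voom, the robust fit and rows kept apart, and 1 with DESeq2 and 1 with edgeR's exact test. Over all genes the calls numbered 2 with all libraries, 74 with DESeq2, 112 with edgeR's exact test and 127 with no filter on low counts. With 1 library left out the ranges were 0 to 12 members called, 32 to 2667 genes called, 2 to 13 members lower and 0 to 7 higher at an unadjusted p under 0.05 (1.38% to 15.5% and 0.959% to 14.7% of all genes), 16 to 22 members lower and 9 to 15 higher without overlap (27.1% to 41.4% and 27.1% to 40.8% of all genes), and a median change of -0.20 to -0.11. Without normal glucose replicate 1, 13 members were lower at an unadjusted p under 0.05 where 15.5% of all genes were, and 15 were higher without overlap where 40.8% of all genes were. Only Pdp1 changed sign under another scaling (0.0067 with upper quartile factors and 0.020 with library totals). Members that changed sign with a library left out were Slc2a6 (-0.68 to 0.21), Slc2a8 (-0.69 to 0.040), Hk3 (-0.10 to 0.47), Pfkfb1 (-0.40 to 1.37), Pfkfb4 (-0.017 to 0.18), Pgk1 (-0.50 to 0.27), Eno1 (-0.39 to 0.10), Ldha (-0.21 to 0.050), Ldhb (-0.046 to 0.53), Pdk2 (-0.45 to 0.35), Pdk4 (-0.091 to 0.11), Pdha1 (-0.052 to 0.60) and Pdp1 (-0.12 to 0.10), each with its lowest and highest value over the 4 fits. The cause was not tested. The upper quartile and library-total scalings moved the median of all genes from -0.0045 to 0.015 and 0.034. The per-length Aldoa share, high minus normal glucose, was 0.25 percentage points and 0.12 with the longest transcript. The Eno3 share was -4.34 and, with Eno1 and Eno1b summed at the Eno1 length, -0.38. Depth limits Slc2a4, Pfkfb1, Hk3, Pdp2 and Slc2a6, the members with the lowest levels per length.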

Other observations

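Glycogen genes, which branch from glucose 6-phosphate, gave 7 of 12 members below 0, 5 lower and 2 higher without overlap (16.2% and 16.3% of all genes), and none called (edgeR). Gys1, the glycogen synthase of muscle and most tissues, had 278 and 348 CPM in normal and 183 and 194 CPM in high glucose (log2 fold change -0.73, SE 0.19, unadjusted p = 0.00472, edgeR). The branching enzyme Gbe1 had 212 and 222 against 168 and 186 CPM, lower in both high glucose libraries. The phosphorylases differed, with Pygl at 126 and 122 against 99.9 and 97.1 CPM (lower in both) and Pygb at 51.7 and 51.6 against 52.2 and 56.2 CPM (higher in both, by less than its SE, log2 fold change 0.069, SE 0.17).

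Among 18 regulators of glycolytic transcription, none was called. At an unadjusted p under 0.05 (edgeR) 2 were lower and 0 higher, where 3.23% and 2.22% of all genes were. Without overlap 4 were lower and 5 higher, where 16.2% and 16.3% of all genes were. Hif1a, a HIF subunit, had 473 and 366 CPM in normal and 539 and 560 CPM in high glucose, higher in both (unadjusted p = 0.0801, edgeR). Myc, an activator of Slc2a1 and Ldha in many cells, had 63.1 and 89.3 CPM in normal and 52.3 and 53.2 CPM in high glucose, and Klf4 had 84.2 and 158 CPM in normal and 67.0 and 79.2 CPM in high glucose. Normal glucose replicate 2 was the highest library for both. Arnt2 had 27.1 and 25.5 against 37.1 and 33.6 CPM, higher in both high glucose libraries, while its relative Arnt overlapped (54.5 and 62.7 against 61.7 and 66.2 CPM). Of the shuttles that carry cytosolic NADH equivalents into the mitochondrion, 5 of 10 genes were higher and 1 lower without overlap (16.3% and 16.2% of all genes), with 0 at an unadjusted p under 0.05. Among them, the malate dehydrogenase Mdh1 had the lowest p (81.8 and 66.0 against 112 and 89.2 CPM, log2 fold change 0.45, SE 0.20, unadjusted p = 0.0585, edgeR).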
